A study of Mus musculus with 2 samples.

Results

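The genes described here are 10 mouse autophagy genes that act in the removal of mitochondria. They are the mitophagy receptors Bnip3l, Bnip3 and Fundc1, the 5 genes of the ATG8 family (Map1lc3a, Map1lc3b, Gabarap, Gabarapl1 and Gabarapl2), the initiating kinase Ulk1 and the cargo receptor Sqstm1. They were chosen by symbol, by matching the Ensembl identifiers of the deposited tables to GENCODE names, and all 10 were found among 43346 Ensembl genes, of which 21461 were nuclear protein-coding. Their 41 listed transcripts were taken by gene identifier.

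The libraries were made from total RNA of G1E-ER4 cells, an immortalised mouse erythroid line in which the erythroid transcription factor GATA1 has been restored in a form that responds to estradiol. The cells (strain C57BL/6J, male) had been given 10 nM 17β-estradiol for 24 h, which sets off their erythroid differentiation, and 2 biological replicates form the 1 group of the study. Both replicates carry the restored Gata1 and both were treated, and untreated cells were not analysed here, so the values are levels in the treated state and no test between conditions was possible. The cells are 1 line grown in culture.

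Developing red cells clear their mitochondria as they mature, and autophagy does much of this work. Receptors in the outer mitochondrial membrane, among them BNIP3L (also called NIX), BNIP3 and FUNDC1, bind through a short LC3-interacting motif to proteins of the ATG8 family, which are attached to the lipid of the growing autophagosome. The ULK1 kinase starts autophagosome formation, and SQSTM1 (p62) links ubiquitinated cargo to the same ATG8 proteins. Loss of BNIP3L in mice leaves mitochondria in circulating red cells.

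The tables hold estimated read counts and TPM, a relative level corrected for transcript length. The replicates held 50277914 (replicate 1) and 47478888 (replicate 2) expected counts, and nuclear protein-coding genes took 28.6% and 29.3% of them. A count of 3 on a gene with 1 kb of effective length corresponds to 0.0910 and 0.0957 TPM. All 8 erythroid markers examined had at least 1 TPM in both replicates, with sums of 1293 and 1311 TPM. Of the 21461 nuclear protein-coding genes 40.2% passed the same threshold, which is the background for the marker counts here. Hbb-bs alone held 994 and 1008 TPM of the erythroid sums. Gata1, also among the 8, had 57.6 and 65.7 TPM, but it was restored in these cells, so its detection does not bear on cell type. Of 25 markers of other cell types, 4 had at least 1 TPM in both replicates and 11 had no count. Of the 4, 3 belonged to the 5 megakaryocyte markers, whose sums were 30.7 and 21.9 TPM. Pf4 had 19.0 and 10.5 TPM, a mean above those of the erythroid markers Alas2 (10.8 and 10.6 TPM), Epor (8.97 and 8.94 TPM) and Epb42 (1.52 and 2.00 TPM). Itga2b had 5.75 and 6.94 TPM, Gp1ba had 4.42 and 3.82 TPM, and the other was Fcgr3 (2.11 and 1.94 TPM). The part of such RNA in the levels below was not tested. The myeloid genes Mpo (0.06 and 1.29 TPM) and Elane (0 and 0.68 TPM) had nearly all of their counts in replicate 2. In RNA from bulk cultures, fewer cells of a type and less RNA per cell cannot be told apart.

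Bnip3l had the highest level of the 10 genes, and most of that level was listed on short transcripts that carry no annotated coding sequence. In transcript level per length, 3 of them, Bnip3l-204, Bnip3l-205 and Bnip3l-206, held 76.3% of the TPM of the gene in replicate 1 and 78.7% in replicate 2. GENCODE classes all 3 as processed transcripts, that is, spliced RNAs without an open reading frame assigned. Each consists mainly of bases that also lie in the exons of the coding transcript Bnip3l-201, and each starts with bases of its own. Those starts are printed 5′ to 3′ below because they are what sets the short transcripts apart from the coding one. Lower case marks the bases outside the exons of Bnip3l-201, and capitals mark the first 20 bases shared with it.
Bnip3l-204: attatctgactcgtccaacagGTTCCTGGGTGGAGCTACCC
Bnip3l-205: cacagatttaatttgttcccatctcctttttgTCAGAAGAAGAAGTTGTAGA
Bnip3l-206: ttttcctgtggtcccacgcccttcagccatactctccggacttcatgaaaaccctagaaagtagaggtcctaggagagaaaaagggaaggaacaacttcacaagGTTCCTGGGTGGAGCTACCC

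The bases in lower case lie on the minus strand of chromosome 14 (mm10). Those of Bnip3l-204 span chr14:66999705-66999725 and are the 21 intronic bases directly before exon 2 of Bnip3l-201, so that this transcript starts inside the first intron and runs on into exon 2 without a splice. Bnip3l-205 begins with an exon of its own of 32 bases at chr14:66989810-66989841, which is spliced to exon 4 of the coding transcript. Bnip3l-206 begins with an exon of its own of 104 bases at chr14:67000405-67000508, which is spliced to exon 2. The capitals of Bnip3l-204 and Bnip3l-206 are the same 20 bases, since both continue with exon 2. They contain TGGGTGGAGCTA, the only place in the Bnip3l reading frame where a tryptophan codon is followed at the third codon after it by a leucine codon beginning with CT, and it codes for the core of the known LC3-interacting motif of BNIP3L. Its tryptophan is codon 35 of 217. The same 12 bases occur in 5 of the 7 listed Bnip3l transcripts, and Bnip3l-205 does not hold them.

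**Figure D1:**
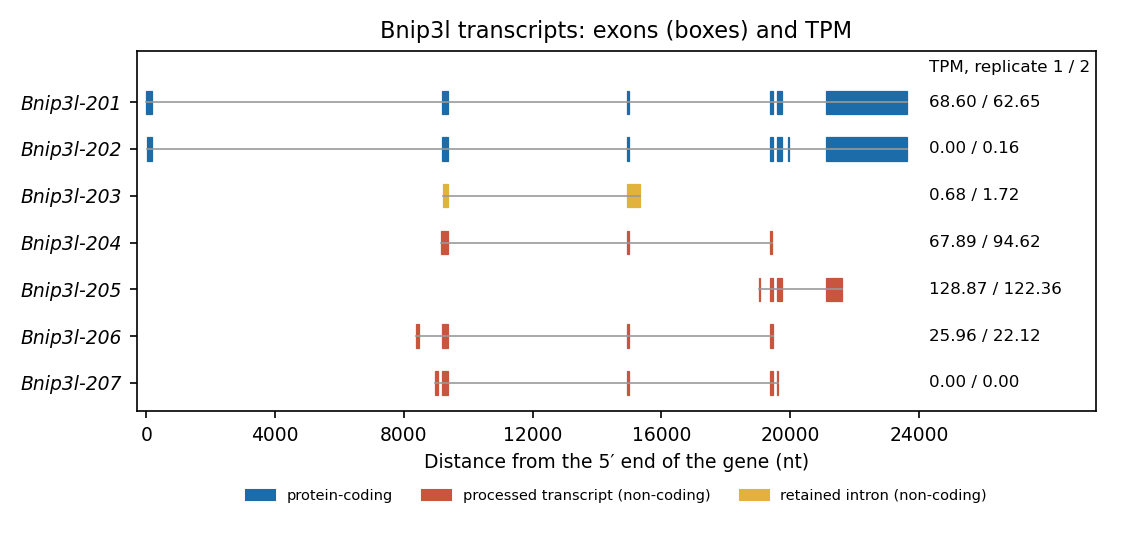
Exons of the 7 listed Bnip3l transcripts, drawn to scale by distance in nucleotides from the 5′ end of the gene, with the TPM of each transcript in replicates 1 and 2 at the right. Boxes are exons, lines join the exons of a transcript and colours give the annotated type; the 3 non-coding transcripts Bnip3l-204, Bnip3l-205 and Bnip3l-206 lie mostly within exons of the coding Bnip3l-201.

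Bnip3l lies on the minus strand of chromosome 14 (66985239 to 67008877, mm10) and had 292 TPM in replicate 1 and 304 TPM in replicate 2, a mean of 298 ± 8.22 (SD, n = 2). It ranked 86th of the 21461 nuclear protein-coding genes by mean TPM, 150th by mean expected count and 432nd by the TPM of coding transcripts. The level rested on 10719 and 9620 expected counts. Counting error alone gives 95% Poisson limits of 287 to 298 TPM in replicate 1 and 298 to 310 TPM in replicate 2, which meet without overlapping. All such limits and floors given here cover counting error only, since reads copied by PCR without molecular identifiers are not independent molecules. They also take the assignment of reads among transcripts as given. The deposited TPM bounds of the gene, 274 to 297 in replicate 1 and 283 to 308 in replicate 2, overlap. Over coding transcripts the replicates stood in the other order, with 68.6 and 62.8 TPM in replicates 1 and 2.

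The coding transcript Bnip3l-201, of 3238 nt, had 68.6 and 62.6 TPM in replicates 1 and 2. Bnip3l-205, of 789 nt, had 129 and 122 TPM, and was the transcript with the most TPM in both. Bnip3l-204, of 354 nt, had 67.9 and 94.6 TPM, the least even of the 4 between replicates. Bnip3l-206, of 446 nt, had 26.0 and 22.1 TPM. The remaining transcripts, Bnip3l-202, Bnip3l-203 and Bnip3l-207, had at most 1.72 TPM each.

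By reads the picture was the other way round. Bnip3l-201 was assigned 65.8% and 63.6% of the expected counts of the gene, while the 3 short transcripts were assigned 34.1% and 36.0%. The short transcripts weigh more in TPM because each read is divided by a smaller effective length, which for a 354-nt transcript is 119 nt (replicate 1) and 123 nt (replicate 2) less than its length. Of the bases of Bnip3l-204, 94.1% lie in exons of Bnip3l-201, as do 95.9% of those of Bnip3l-205 and 76.7% of those of Bnip3l-206. A read from such bases fits both transcripts, and its assignment was the authors' estimate. The deposited TPM bounds for Bnip3l-204 were 54.0 to 76.4 in replicate 1 and 75.5 to 102 in replicate 2, the widest relative to the level among the 3 that exceed 60 TPM, and the confidence level of these bounds is not given in the sources used here. How the short transcripts arise was not tested.

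Bnip3, the paralogue of Bnip3l and also a receptor bound by ATG8 proteins, came after Bnip3l and Gabarap in level. It lies on the minus strand of chromosome 7 (138890836 to 138909519) and had 84.7 and 79.5 TPM in replicates 1 and 2 (mean 82.1 ± 3.71, SD, n = 2), from 3792 and 3403 counts. Its TPM sat mostly on coding transcripts. The full-length Bnip3-201 held 74.0% and 75.5% of the TPM of the gene, and the shorter coding Bnip3-203, of 719 nt, held 22.9% and 20.4%. Over all coding transcripts the share was 97.0% and 95.9%.

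Fundc1, a receptor of the outer mitochondrial membrane whose motif is known to be controlled by phosphorylation, was the lowest of the 3 receptors. It lies on the X chromosome (17556564 to 17572325, minus strand) and had 6.99 and 8.42 TPM (mean 7.71 ± 1.01, SD, n = 2), from 319 and 396 counts. All of it was on coding transcripts. Fundc1-201 and Fundc1-205 shared the TPM almost evenly in replicate 1 (49.6% and 50.4%), where their deposited bounds overlapped (2.74 to 3.92 and 2.32 to 4.41 TPM). In replicate 2 Fundc1-201 held 64.5% of the TPM and Fundc1-205 held 30.9%. By reads Fundc1-201 led in both replicates, with 213.05 and 316.74 expected counts, against 105.95 and 74.07 for Fundc1-205. Bnip3 stood 12.1 and 9.44 times as high as Fundc1 in replicates 1 and 2.

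Bnip3l and Bnip3 can therefore be set against each other on several scales, and their order depended on the scale. On gene TPM, Bnip3l was 3.45 and 3.82 times Bnip3 in replicates 1 and 2 (mean 3.63 ± 0.265, SD, n = 2). With all reads of each gene placed on its principal coding transcript, the ratio was 1.48 in both. Over coding transcripts only, Bnip3l had 68.6 and 62.8 TPM, against 82.1 and 76.2 TPM for Bnip3, a ratio of 0.835 and 0.825, so that the order was turned round in both replicates. In the same way the Bnip3l share of the summed TPM of the 3 receptors was 76.8% ± 1.03 on gene TPM and 43.1% ± 0.620 over coding transcripts (SD, n = 2). The scales on coding or principal transcripts were added after the data had been seen.

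**Figure D2:**
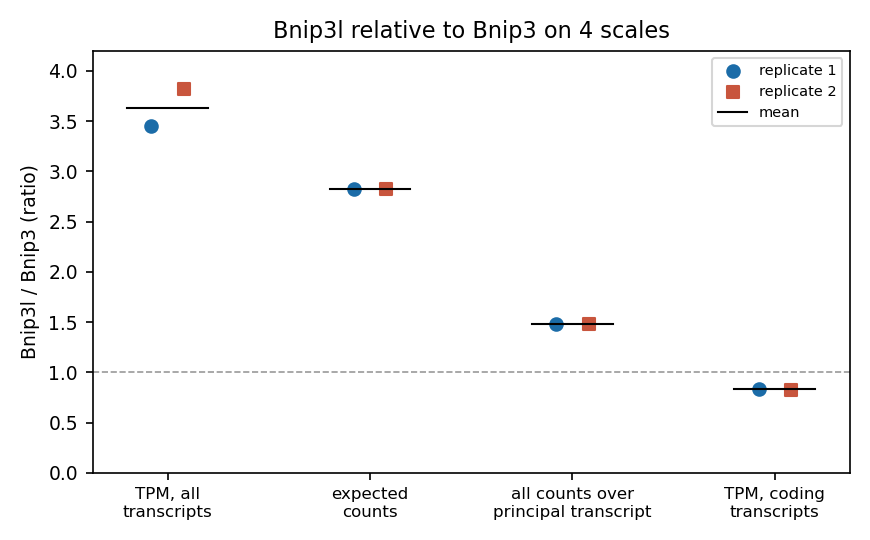
Ratio of Bnip3l to Bnip3 in each replicate (points) with its mean (line), on 4 scales; the dashed line marks a ratio of 1. The mean ratio falls between 3.63 on gene TPM and 0.830 on the TPM of coding transcripts, and within each scale the replicates lie close together.

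Gabarap was the leading gene of the ATG8 family and the second of the 10 genes on TPM. ATG8 proteins fall into the LC3 subfamily, here Map1lc3a and Map1lc3b, and the GABARAP subfamily, here Gabarap, Gabarapl1 and Gabarapl2 (also called GATE-16). Gabarap lies on chromosome 11 (69991143 to 69994951, plus strand) and had 143 and 129 TPM in replicates 1 and 2 (mean 136 ± 9.48, SD, n = 2), from 3866 and 3393 counts. It had 2 coding transcripts, with the same order on TPM in both replicates. Gabarap-202, of 750 nt, held 47.7% and 46.7% of the TPM, and Gabarap-201, of 1351 nt, held 24.4% and 27.2%. By reads this order was not kept, with 36.6% and 35.0% of the counts on Gabarap-202 and 36.6% and 39.9% on Gabarap-201. All 750 bases of Gabarap-202 also lie in exons of Gabarap-201, so the assignment of their reads was the authors' estimate. A retained-intron transcript, Gabarap-204, held 26.5% and 25.9%.

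Map1lc3b, which encodes LC3B, the ATG8 protein most used as an autophagosome marker, had 19.9 and 18.0 TPM (mean 18.9 ± 1.34, SD, n = 2), from 1217 and 1083 counts. It lies on chromosome 8 (121590361 to 121598760, plus strand). Gabarap stood 7.18 and 7.19 times as high in replicates 1 and 2. The coding transcripts Map1lc3b-201 (62.9% and 67.1% of the TPM) and Map1lc3b-205 (33.4% and 29.6%) made up nearly all of the level.

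Gabarapl2 and Gabarapl1 stood below Map1lc3b in gene TPM. Gabarapl2, on chromosome 8 (111940703 to 111953612, plus strand), had 11.1 and 9.62 TPM (mean 10.4 ± 1.05, SD, n = 2), from 308 and 271 counts. Most of this was listed on a retained-intron transcript of 749 nt, Gabarapl2-203, with 72.4% and 67.3% of the TPM, while the single coding transcript Gabarapl2-201 held 22.9% and 29.6%, or 2.55 and 2.84 TPM. By reads, Gabarapl2-201 held 42.5% and 51.1% of the counts, so here too the short transcript weighed more in TPM than in reads. Gabarapl1, on chromosome 6 (129533160 to 129542346, plus strand), had 3.24 and 5.01 TPM (mean 4.13 ± 1.25, SD, n = 2), from 176 and 258 counts on its only listed transcript. Its replicates differed the most among the detected genes, by 0.61 on the log2(TPM + 0.1) scale (replicate 2 over replicate 1).

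Map1lc3a, which encodes LC3A, was close to the counting floor. It lies on chromosome 2 (155276297 to 155278073, plus strand) and had 0.09 and 0.33 TPM in replicates 1 and 2, from 2 and 7 counts. All of these counts were listed on the non-coding Map1lc3a-202, and the coding Map1lc3a-201 had no count in either replicate. All 807 bases of Map1lc3a-202 also lie in exons of Map1lc3a-201, so these reads fit both, and the 0 listed for the coding transcript was the authors' assignment. The deposited upper bound for Map1lc3a-201 was 0.123 and 0.136 TPM, and with all counts of the gene placed on it the level would be 0.0611 and 0.226 TPM. All 5 ATG8 genes are told apart by sequence. The coding sequences of the most alike pairs, Map1lc3a with Map1lc3b and Gabarap with Gabarapl1, matched at 76.3% and 74.6% of aligned bases, and the other pairs matched at 53.0% to 63.5%.

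Summed over the family, the ATG8 genes had 177 and 162 TPM, and the GABARAP subfamily held 88.7% of it in each replicate (SD 0.00704, n = 2). Gabarap alone held 80.6% and 79.7%, and Map1lc3b held 11.2% and 11.1%. The share of the GABARAP subfamily was 85.1% ± 0.471 over coding transcripts and 78.2% ± 0.0998 by reads, so it led the family on each of these scales. The 3 receptors had 384 and 392 TPM in sum, 2.17 and 2.41 times the sum of the ATG8 family, and 1.23 and 1.22 times over coding transcripts.

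Ulk1, the kinase that starts autophagosome formation, had 12.1 and 12.3 TPM in replicates 1 and 2 (mean 12.2 ± 0.205, SD, n = 2), from 2026 and 1970 counts on its only listed transcript, of 5213 nt. It lies on chromosome 5 (110784488 to 110810097, minus strand). The paralogous kinase gene Ulk2 had 3.86 and 3.70 TPM, so Ulk1 stood 3.12 and 3.34 times as high. Of the 10 genes, Ulk1 had the smallest replicate difference, at 0.03 on the log2(TPM + 0.1) scale.

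Sqstm1, which encodes the ubiquitin-binding cargo receptor p62, had 18.9 and 21.4 TPM (mean 20.1 ± 1.81, SD, n = 2), from 1080 and 1246 counts. It lies on chromosome 11 (50199366 to 50210827, minus strand), and coding transcripts held 86.7% and 95.5% of its TPM. Sqstm1-202 led with 52.1% and 48.7%, followed by Sqstm1-201 with 20.3% and 28.1% and Sqstm1-205 with 14.3% and 10.9%. It overlaps Mrnip, a gene of the opposite strand with 7.67 and 7.21 TPM, over 750 bases, and whether reads were counted by strand is not given in the sources used here.

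Set in order, the gene levels ran Bnip3l, Gabarap, Bnip3, Sqstm1, Map1lc3b, Ulk1, Gabarapl2, Fundc1, Gabarapl1 and Map1lc3a. In 8 of the 9 neighbouring pairs both replicates of the higher gene lay above both of the lower, and Sqstm1 and Map1lc3b did not differ beyond their spread. Over coding transcripts the order was Gabarap, Bnip3, Bnip3l, Map1lc3b, Sqstm1, Ulk1, Fundc1, Gabarapl1 and Gabarapl2, where again Map1lc3b and Sqstm1 did not separate. The steps between the groups of genes were large on both scales. Bnip3, the lowest of the 3 highest, stood 4.08 times above Sqstm1 on gene TPM, and Bnip3l, the lowest of the 3 highest over coding transcripts, stood 3.55 times above Map1lc3b.

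**Figure D3:**
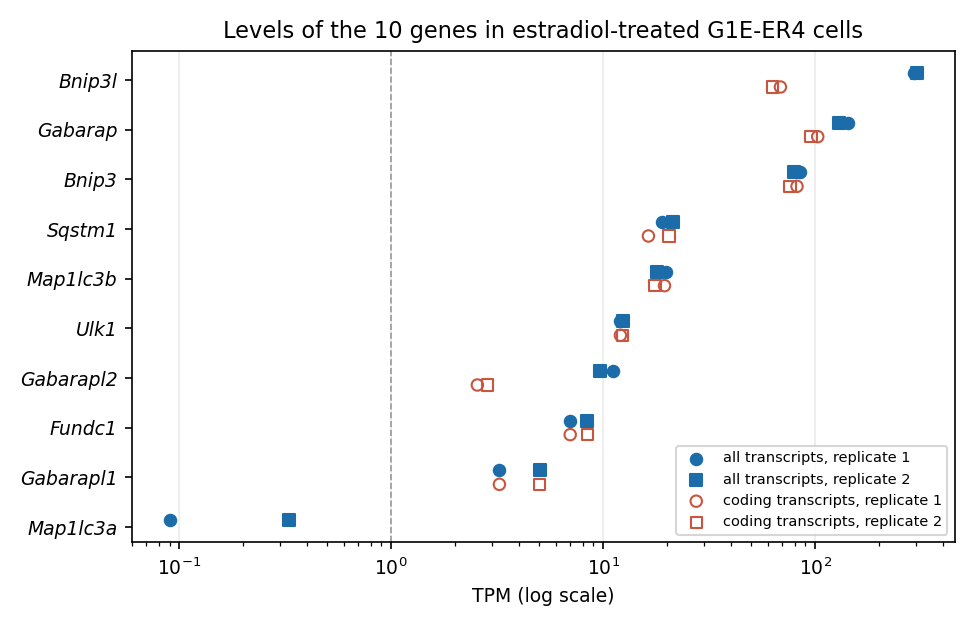
TPM of the 10 genes in each replicate, on a log axis, over all listed transcripts (filled) and over coding transcripts only (open); the dashed line marks 1 TPM, and Map1lc3a has no open points because its coding transcript was listed with no count. Bnip3l and Gabarapl2 show the widest gaps between filled and open points, and Bnip3l moves below Gabarap and Bnip3.

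Of the 10 genes, 9 were detected, here meaning at least 1 TPM in both replicates, against 40.2% of the 21461 nuclear protein-coding genes. The median of their mean levels was 15.6 TPM with Map1lc3a included, against 9.76 TPM over the detected nuclear protein-coding genes. None of the 9 genes with a mean of at least 1 TPM differed 2-fold or more between replicates on log2(TPM + 0.1), against 1.95% of the 8808 such nuclear protein-coding genes. Map1lc3a did, from its 2 and 7 counts. Over the 10 genes the median log2 ratio of replicate 2 over replicate 1 was 0.05, against 0.03 over the 8808 genes.

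In 2 of the 9 detected genes, Bnip3l and Gabarapl2, under 50% of the TPM lay on coding transcripts in both replicates. On TPM the same held for 11.2% of 8323 detected nuclear protein-coding genes. It held for 18.2% of the 5111 of them that have a non-coding transcript annotated, so such genes were not rare. On expected counts it held for 0 of the 9, though Gabarapl2 was under 50% in replicate 1 (42.5%, with 51.1% in replicate 2). The share over all genes on expected counts is not given here. The median share of TPM on coding transcripts over the 8323 genes was 95.7% and 93.9% in replicates 1 and 2. Bnip3l stood at 23.5% and 20.7%, and Gabarap at 72.1% and 73.9%. For Ulk1 and Gabarapl1 the share is 100% by construction, as only 1 transcript of each is listed.

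**Figure D4:**
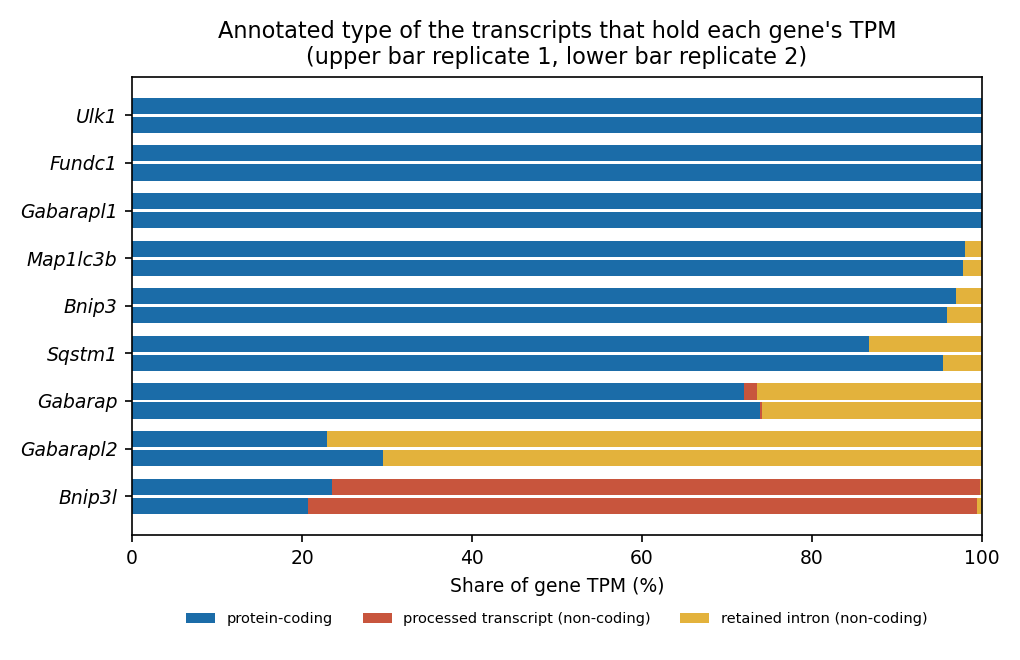
Share of the TPM of each detected gene on coding, processed and retained-intron transcripts, with replicate 1 as the upper and replicate 2 as the lower bar. Coding transcripts hold less than 30% for Bnip3l and Gabarapl2, in Bnip3l against processed transcripts and in Gabarapl2 against retained-intron transcripts.

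Several of the genes have near-identical copies, to which reads could be lost. Where a copy was not listed, any reads from it could instead be counted on the gene, which was not tested. Bnip3l-ps, a processed pseudogene on chromosome 12 whose sequence matches the Bnip3l coding sequence at 99.4% of bases, was listed with 4.59 and 4.52 TPM, small beside the 292 and 304 TPM of Bnip3l. Of 5 copies of Bnip3 found in GENCODE, 2 were listed, and Gm16439 alone had reads (1.54 and 0.94 TPM). The 5 copies of Map1lc3b together had 0.72 and 0.29 TPM, and the 2 listed of the 6 copies of Gabarapl2 had no count. The other genes had no copy at 90% identity over 80% of the coding sequence. Gm20388 overlaps Map1lc3b along its length on the same strand, and Zcchc14 and 1700101I11Rik overlap Map1lc3b and Gabarapl1 over 58 and 658 bases on the opposite strand. These 3 were listed at 0. Gm45507 and Gm18258 overlap Bnip3 over 3712 and 852 bases on the opposite strand, and Gm44243 overlaps Gabarapl1 over 692 bases on the same strand. They were not listed, so any reads from them could be counted on Bnip3 or Gabarapl1, which was not tested.

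The rest of the autophagy pathway was largely detected too. Of 67 further autophagy genes in 8 lists, 60 had at least 1 TPM in both replicates, against 40.2% of the 21461 nuclear protein-coding genes. The same 40.2% is the background for the detected counts of each list below. The median over all 67, detected or not, was 8.99 TPM, against 9.76 TPM over the detected nuclear protein-coding genes. These lists describe the setting of the 10 genes and were not tested against other genes. Both the 10 genes and the lists were chosen with earlier results of these data known, so their detected counts are descriptive only.

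Upstream of the ATG8 proteins, 4 of 5 other ULK complex genes were detected. Rb1cc1, the scaffold FIP200, led with 20.0 and 21.9 TPM in replicates 1 and 2, ahead of Atg13 (5.50 and 7.29 TPM) and Ulk2. Atg101 was lowest, at 0.66 and 1.04 TPM, just under the threshold in replicate 1.

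All 8 genes of the class III PI3-kinase complex, which makes the lipid that marks the forming autophagosome, were detected. Ambra1 (11.5 and 11.2 TPM), Becn1 (10.4 and 9.78 TPM) and Nrbf2 (9.38 and 10.7 TPM) were highest and Atg14 (1.78 and 1.75 TPM) was lowest. Among the genes for ATG9, ATG2 and WIPI proteins, which supply membrane and lipid, 7 of 8 were detected, led by Atg2b (13.4 and 15.2 TPM), Wdr45b (10.9 and 12.3 TPM) and Atg9a (9.51 and 12.2 TPM). Atg9b, with 0 and 0.07 TPM, was lowest.

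Of 11 genes that cleave ATG8 proteins or attach them to lipid, 9 were detected. The protease gene Atg4b (18.3 and 27.8 TPM) and Atg16l1 (13.5 and 19.8 TPM), which directs the attachment to the membrane, were highest on TPM, followed by the conjugating enzyme gene Atg3 (10.3 and 11.1 TPM). The expected counts, 1219 and 1257 for Atg4b and 1185 and 1305 for Atg16l1, lay closer between replicates than the TPM. Atg4c, another protease gene, had no count in either replicate.

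Of 7 other cargo receptor genes, 6 were detected. Ncoa4, the receptor for ferritin, had 30.9 and 20.9 TPM, Nbr1 had 24.1 and 26.0 TPM and Tax1bp1 had 25.9 and 24.1 TPM. All 3 had higher mean levels than Sqstm1, but the range of Ncoa4 overlapped that of Sqstm1. Wdfy3 was lowest and had 1 count in replicate 2 only.

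Among 10 other genes of mitophagy, 9 were detected. Phb2, an inner-membrane prohibitin that also acts as a receptor, had 94.1 and 99.3 TPM, above both replicates of Bnip3, and Fkbp8, an outer-membrane receptor, had 46.2 and 56.6 TPM. Pgam5, a mitochondrial phosphatase that acts on FUNDC1, had 14.8 and 12.9 TPM. Pink1, whose kinase product starts the ubiquitin-dependent route, had 1.51 and 2.09 TPM.

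All 10 genes of the lysosome and of autophagosome fusion were detected, led by Rab7 (95.0 and 104 TPM), Lamp2 (55.4 and 53.0 TPM) and Lamp1 (50.3 and 55.7 TPM), with Epg5 lowest (4.23 and 4.82 TPM). Of 8 regulators of autophagy genes, 7 were detected. Hif1a, whose protein is known to drive Bnip3 transcription in hypoxia, had 28.6 and 23.3 TPM, Foxo3 had 21.1 and 20.6 TPM and Tfe3 had 17.4 and 20.2 TPM, while Mitf was near 0.

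**Figure D5:**
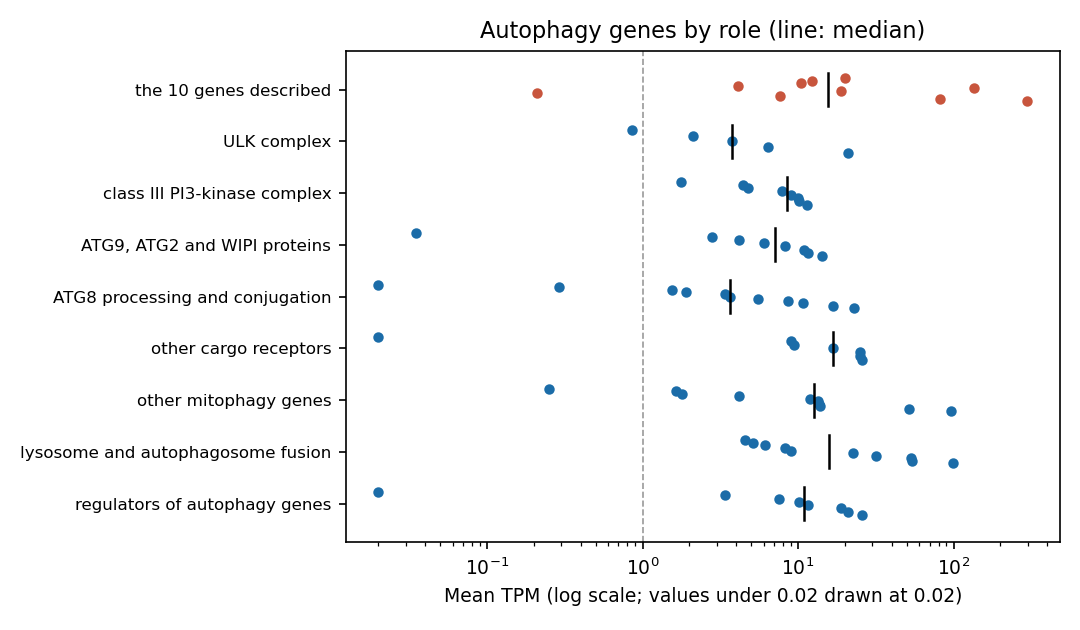
Mean TPM over both replicates of the 10 genes (top) and of 67 further autophagy genes grouped by role, on a log axis; each point is a gene, the short vertical line is the median of its group and the dashed line marks 1 TPM. On gene TPM over all listed transcripts, Bnip3l and Gabarap lie above every gene of the other groups. Over coding transcripts their means were 65.7 and 99.2 TPM, against gene TPM of 99.7 for Rab7 and 96.7 for Phb2. The coding shares of Rab7 and Phb2 are not given here. Of the 67 further genes, 60 had at least 1 TPM in both replicates.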

How the data were processed

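Total RNA libraries of G1E-ER4 cells (2 biological replicates, 1 group) were read from the gene and transcript tables the authors deposited. Per the file headers, each table gives expected counts (estimated read counts, not rounded here), TPM (a length-corrected relative level scaled over all listed entries, 69691 per gene table), posterior mean TPM with a lower and an upper bound, lengths, and the percent of gene TPM held by each transcript. The deposited documentation names mm10 and GENCODE M4; for the aligner, quantifier version and trimming, the sources used here give nothing. The labels state that spike-ins were added.

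Gene symbols, transcript types and positions came from GENCODE M21 by identifier, without version: 42462 of 43346 Ensembl genes matched, and 40 of the 41 transcripts described had the same length (Gabarapl1-201 was 1820 nt in M21 and 1765 nt in the tables). Sequences are GENCODE M21 transcripts. Because types come from a later annotation than the tables, a type may have been assigned differently when the reads were quantified. From the tables were computed means, SDs, log2(TPM + 0.1) ratios between replicates, shares and ratios within a library, exact Poisson limits (95%), a floor of 3 counts, and coding-transcript sums. Copies were sought with BLAST 2.17.0 (90% identity over 80% of the coding sequence). Calculations used Python 3.11.15 with numpy 2.4.6, pandas 2.3.3, Biopython 1.88, scipy 1.17.1 and matplotlib 3.10.9. The replicate ratios and coding shares were tested on simulated counts already assigned to transcripts. The assignment of reads that fit several transcripts was not part of that test. Per-sample columns left unused numbered 0.

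With 1 group no p-value was computed. Neighbours in the order of levels were called apart where both replicates of one lay above both of the other. Named were all 10 genes, of each pathway list up to 3 genes with the highest and 1 with the lowest mean TPM, leading transcripts and those with at least 10% of the TPM of their gene, and listed copies; Pink1, Map1lc3a-201, Bnip3l-206 and the lower Bnip3l transcripts, the overlapping genes and the markers were named outside this rule, after their values were seen. The lowest gene of 1 list is not reported here. The 10 genes and all lists were chosen with earlier results of these data known.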

Additional observations from a re-analysis of the deposited data

How the results depend on the processing

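No paired analysis was possible because the study has 1 group. The scales on coding transcripts and on principal transcripts were chosen after seeing the data. The Bnip3l over Bnip3 ratio of 3.63 was 2.83 on expected counts, 1.48 with all counts over the principal transcript and 0.830 on coding transcripts, where its order was reversed. The Bnip3l share of receptor TPM (76.8%) was 72.0%, 57.7% and 43.1% on the same scales. The GABARAP subfamily share (88.7%) was 78.2% on expected counts, 87.2% over principal transcripts, 85.1% on coding transcripts, 88.5% on the posterior mean TPM and 88.5% with listed copies added. The percentile of Bnip3l among nuclear protein-coding genes (99.6) was 99.0 among genes whose mean TPM reached 1, 99.3 on expected counts and 98.0 on coding transcripts. On expected counts none of the genes (0, against 2 on TPM) had under 50% on coding transcripts in both replicates.

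With 2 replicates, leaving out 1 returns the value of the other, so the values that follow restate the single replicates and are no further check. Leaving out each replicate in turn gave 3.45 to 3.82 for the ratio, 76.1% to 77.6% for the Bnip3l share, 88.72% to 88.73% for the GABARAP share, 99.59 to 99.60 for the percentile, 9 and 9 genes detected, 2 and 2 genes under 50%, and 60 to 61 further autophagy genes detected. With a threshold of 5 TPM, 8 of the 10 genes and 42 of the 67 were detected. The share over all genes at this threshold is not given here. Single-gene levels moved by more than 1 SD for 4 of the 10 genes on coding transcripts, for 6 over principal transcripts and for 1 on the posterior mean TPM. Rescaling TPM over nuclear protein-coding genes multiplied every level by 4.41 and 4.37. The median log2 ratio of the 10 genes was 0.05 on TPM and -0.05 on counts scaled by the nuclear protein-coding total or by median-of-ratios size factors. Depth limits Map1lc3a, with 2 and 7 counts.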
